A study of Mus musculus with 73 samples.

Results

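The genes described here encode the proteins of the mitochondrial ribosome. They were taken by name, as every row of the count table whose symbol is Mrpl or Mrps followed by a number. That gave 78 of 55291 gene rows, 49 with an Mrpl symbol and 29 with an Mrps symbol, after 6 pseudogene rows were left out. By the known place of each protein, 26 belong to the small subunit and 51 to the large subunit. Mrps30 and Mrps18a are counted with the large subunit in spite of their symbols, because their proteins sit there. The last, Mrps36, is now known as a subunit of the 2-oxoglutarate dehydrogenase complex rather than of the ribosome, and was kept because the rule goes by symbol.

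The cells were 73 inner hair cells of the mouse cochlea at postnatal day 14, picked by hand under a fluorescence microscope and sequenced as full-length cDNA. All carried Atoh1Cre/+ and Casz1flox/flox, so Casz1, a zinc finger transcription factor, is deleted where the Atoh1-driven Cre recombinase has acted. They also carried the Cre-dependent reporter Rosa26-CAG-Loxp-stop-Loxp-3xGFP (Ai47), the Flp-dependent reporter Rosa26-CAG-Frt-stop-Frt-tdTomato and Fgf8-Flpo/+, which marks inner hair cells. Cells positive for both GFP and tdTomato were taken, so the material holds only cells in which both recombinases had acted and that withstood dissociation. Wild-type cells were not analysed here, so no difference between genotypes is given. Because no animal is named in the labels, the 73 cells count as 1 sample without replicates, and every correlation over them is a description without a p-value.

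Mitochondria keep a small genome whose messenger RNAs encode core subunits of the respiratory chain. A dedicated ribosome inside the organelle reads them. Its ribosomal RNAs, mt-Rnr1 and mt-Rnr2, are transcribed in the mitochondrion, whereas all of its proteins are encoded in the nucleus, made in the cytosol and imported. Some of these proteins descend from proteins of the bacterial ribosome, and others are found only in mitochondria. Hair cells depend on mitochondria for the energy and the calcium buffering that mechanotransduction and transmitter release require, and inherited defects of mitochondrial translation are among the causes of hearing loss in humans.

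Libraries held 11027945 to 37183702 counts, with a median of 17333640. Levels are in CPM, counts scaled to an equal library total, and 10 CPM, the level called detected here, stood for 110 counts in the library with the fewest counts and 372 counts in that with the most. All 10 general hair cell markers and all 8 inner hair cell markers were detected in at least 37 cells, as were 4 of 8 outer hair cell markers. Of the markers of other cell types, 0 of 9 for supporting cells, 0 of 8 for glia, 0 of 8 for mesenchyme, 0 of 10 for blood, immune and endothelial cells and 2 of 8 for neurons reached that. Summed per cell, these lists had medians of 0.235 CPM (supporting cells, range 0 to 1295 CPM), 46.2 CPM (glia, 0 to 498 CPM), 0.708 CPM (mesenchyme, 0 to 538 CPM), 14.2 CPM (blood, immune and endothelial, 0 to 1569 CPM) and 372 CPM (neurons, 38.1 to 982 CPM). The rho of the summed lists with the summed level of the 78 genes described below lay between -0.160 (neurons) and 0.211 (outer hair cells). Values without the cells that held rare markers of other cell types are given with the correlations. Casz1 itself had 0 to 283 CPM with a median of 42.1 CPM, and the labels do not say which exons the floxed allele removes. Slc26a5 (prestin, by which outer hair cells change their length) had 0 to 1229 CPM with a median of 73.1 CPM, and was detected in 51 cells.

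Most of the ribosomal protein genes were expressed in most cells. Of the 78 genes, 60 were detected in at least 37 of the 73 cells, against 17.8% of the 27502 gene rows with any count and 56.9% of the 8619 genes averaging at least 10 CPM. Of the 78, 11 were detected in all 73 cells, against 2.27% of gene rows with a count and 7.25% of genes with that mean. They were Mrps6, Mrps18a, Mrps21, Mrps33, Mrps36, Mrpl18, Mrpl20, Mrpl23, Mrpl33, Mrpl51 and Mrpl54. A cell had a median of 56 of the 78 genes detected, with a range of 42 to 68. At the same time the genes dropped out of single cells often: 64 of 78 had 0 counts in at least 1 cell, and a median of 15 genes had 0 counts in a given cell. In single-cell libraries made by amplification, a count of 0 can be a transcript that was not captured, and dropout and absence cannot be told apart.

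**Figure D1:**
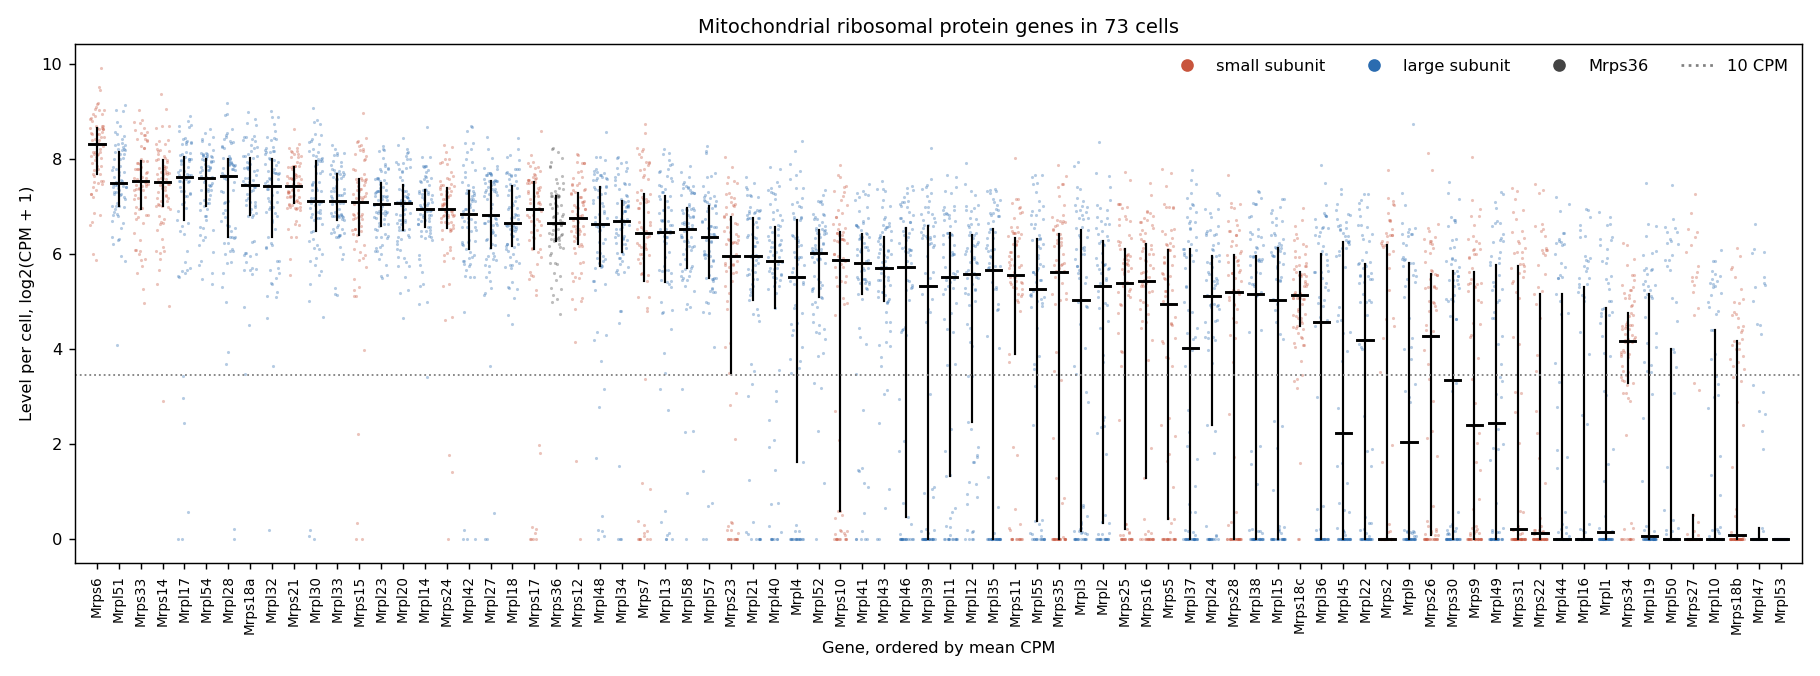
Level of each of the 78 genes in each of the 73 cells on the log2(CPM + 1) scale, with genes ordered by mean CPM, points for single cells and a dotted line at 10 CPM. The genes at the high end lie above the line in all or nearly all cells, and those at the low end spread between 0 and the level of the others.

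Among the small subunit genes Mrps6 had the highest median in CPM, which is not scaled for gene length. Its lowest value was 57.5 CPM, its median 319 CPM and its highest value 971 CPM. Mrps6 encodes the counterpart of bacterial protein S6, and every cell was above the detection level. Mrps6 shares 19.9% of its exon bases on the same strand with Gm49711 and Slc5a3. Slc5a3 had a median of 3.72 CPM, an upper quartile of 94.7 CPM and a highest value of 680 CPM, and was detected in 34 cells. Gm49711 had 0 counts. Mrps21, also a protein with a bacterial counterpart, had 46.4, 173 and 394 CPM as lowest, median and highest values, and Mrps33, a protein specific to mitochondria, had 30.2, 184 and 523 CPM. Both lay above 10 CPM in all 73 cells. Mrps14 had 6.47, 183 and 663 CPM, and only 1 cell was below 10 CPM. Mrps12, the counterpart of the bacterial decoding-centre protein that streptomycin resistance maps to, had 0, 107 and 276 CPM and was detected in 71 cells. Mrps15, an RNA-binding protein of the small subunit, had 0, 136 and 502 CPM and was detected in 69 cells. At the low end, Mrps27, a pentatricopeptide repeat protein, had a median of 0 CPM, a highest value of 152 CPM and 16 cells with detection.

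Among the large subunit genes, Mrpl54 had 40.3, 193 and 396 CPM as lowest, median and highest values, Mrpl51 had 16, 178 and 563 CPM, and Mrpl20 had 24.3, 134 and 347 CPM. All 3 were above 10 CPM in every cell. Mrpl23, a protein at the exit of the tunnel through which the new chain leaves, had 44.1, 131 and 308 CPM. Its longest coding transcript shares 66.7% of its 50-base stretches with another annotated transcript, that of Mrpl23-ps1, so its counts are uncertain. Mrpl33 had 34.5, 138 and 314 CPM and Mrpl34 had 0, 103 and 261 CPM. Both encode small proteins with bacterial counterparts. Mrpl33 was detected in all 73 cells and Mrpl34 in 69. Of the longest coding transcript of Mrpl33, 30.3% of 50-base stretches also occur in Gm43809 on the same strand, so its counts are uncertain too. Mrpl58, a peptidyl-tRNA hydrolase built into the large subunit that can free stalled ribosomes, had 0, 91.1 and 230 CPM and was detected in 68 cells.

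The stalk of the large subunit, which recruits the translation factors, is formed by Mrpl10, Mrpl11 and Mrpl12. Mrpl10, the base of the stalk, had a median of 0 CPM and a highest value of 67.3 CPM, and was detected in 22 cells. Mrpl12 had a median of 47.2 CPM and a highest value of 240 CPM, and was detected in 52 cells. Mrpl11, at the foot of the stalk, had a median of 44.6 CPM and a highest value of 203 CPM, and was detected in 51 cells. So members of the same structure, which the ribosome holds in fixed numbers, differed in how often their transcripts were seen. Around the exit of the tunnel lie Mrpl17, Mrpl22, Mrpl23, Mrpl24, Mrpl45 and Mrpl47. Mrpl17 had a median of 195 CPM and was detected in 67 cells, Mrpl24 a median of 33.6 CPM and 54 cells, Mrpl22 a median of 17.1 CPM and 40 cells, and Mrpl47 a median of 0 CPM and 12 cells. Mrpl45, the protein that anchors the ribosome to the inner membrane in mammals, had a median of 3.68 CPM and 35 cells with detection. Mrpl44, which has an RNase III-like fold, had a median of 0 CPM and 23 cells with detection.

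The central protuberance, the part of the large subunit that faces the small subunit at its top, includes Mrpl18, Mrpl27, Mrpl38, Mrpl40, Mrpl46 and Mrpl48, and each of the 6 was detected in at least 37 cells. Mrpl27 had a median of 112 CPM and a highest value of 353 CPM, Mrpl18 had 22, 99.1 and 347 CPM as lowest, median and highest values, and Mrpl48 had a median of 98.8 CPM and a highest value of 380 CPM. Mrpl40 had a median of 56.4 CPM, Mrpl46 of 52.2 CPM and Mrpl38 of 34.6 CPM. Mrpl18 was above the detection level in every cell, and Mrpl38 in 41 cells. Of the longest coding transcript of Mrpl27, 39% of 50-base stretches also occur in transcripts of other genes.

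The paralogs Mrps18a, Mrps18b and Mrps18c all derive from bacterial protein S18 and occupy different places in the ribosome. Mrps18a had 10.1, 174 and 509 CPM as lowest, median and highest values and was detected in all 73 cells. Mrps18c had 0, 34.4 and 125 CPM and was detected in 66 cells. Mrps18b had 0, 0.0688 and 69.3 CPM and was detected in 28 cells. The order by median was therefore Mrps18a, Mrps18c, Mrps18b, with ranges that overlapped in all 3. Mrps18b shares 30.5% of its exon bases with Gm16279 on the opposite strand, and Mrps18c shares 23.2% with Gm43511 on the same strand.

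Mrps2 and Mrps7 are genes of the set known from recessive human disease that includes deafness. Mrps7 had a median of 86.1 CPM and a highest value of 428 CPM, and was detected in 59 of 73 cells, which is 80.8% with an exact 95% interval of 69.9% to 89.1%. Mrps2 had a median of 0 CPM and a highest value of 217 CPM, and was detected in 30 cells, which is 41.1% with an interval of 29.7% to 53.2%. These intervals cover counting error over cells only. Mrps36, the subunit of 2-oxoglutarate dehydrogenase, had 25.5, 99.7 and 299 CPM and was detected in every cell.

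Mrpl53 was the exception of the set, with 0 counts in all 73 cells. By the limit of 3 in 73, a count of 0 cells allows a share of up to 4.11% of cells, and the exact Clopper-Pearson 95% interval reaches 4.93%. In a library, 3 counts stood for 0.272 CPM where the library total was lowest and 0.0807 CPM where it was highest. In the GENCODE vM21 annotation of GRCm38, Mrpl53 lies on the plus strand of chromosome 6, from base 83109040 to base 83109939, and shares 88.0% of its exon bases on the same strand with Gm42688. All of the 50-base stretches of its longest coding transcript also occur in Gm42688, which itself had 305 counts in all, in 4 cells. The sources used here do not say how reads falling in both genes were counted, so the 0 is not read as absence of the transcript. Of the 78 genes, 18 share more than 10% of their exon bases with another gene and 3 share more than 50%, namely Mrpl53, Mrps34 and Mrps25. Mrps34 had a median of 17.1 CPM with 77.8% shared, and Mrps25 had a median of 40.8 CPM with 69.8% shared, so both are uncertain.

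To compare levels between genes, CPM were divided by the length of each gene's merged exons in kilobases. On that scale the medians were highest for Mrpl54 at 234 CPM per kb and Mrps21 at 234 CPM per kb, ahead of Mrps6 at 208 CPM per kb and Mrpl34 at 169 CPM per kb. Mrpl28 had 144, Mrpl14 129, Mrpl27 114, Mrps33 110, Mrps12 103 and Mrps24 83.0 CPM per kb. These 10 genes mix the subunits and include proteins with and without a bacterial counterpart. The 8 genes with a median of 0 were Mrps2, Mrps27, Mrpl10, Mrpl16, Mrpl44, Mrpl47, Mrpl50 and Mrpl53. The choice of length mattered for genes with long rare exons: Mrpl33 had 18.9 CPM per kb of merged exons and 289 CPM per kb of its longest coding transcript, and Mrpl23 had 26.8 and 178 CPM per kb. The median gene of the small subunit had 16.8 CPM per kb and the median gene of the large subunit had 19.5 CPM per kb. The ribosome holds its proteins in nearly equal numbers, and the transcript levels per length ranged from 0 to 234 CPM per kb.

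Summed over the 78 genes, the ribosomal protein transcripts took a median of 0.636% of a cell's counts. The quartiles were 0.594% and 0.692%, and the range ran from 0.457% in cell 14 to 0.815% in cell 69. The highest cell therefore held less than 2 times the lowest. The 10 genes with the most counts made up 32.4% of all counts of the set and the 20 with the most made up 54.3%. The small subunit genes took a median of 0.217% of counts, with a range of 0.126% to 0.331%, and the large subunit genes took 0.405%, with a range of 0.260% to 0.564%. The shares of the subunits correlated weakly over cells, at a Spearman's rho of 0.262 (n = 73), and both shares have the same library total as denominator. The mean per-length level of small over large subunit genes had a median ratio of 1.20 over cells and a range of 0.701 to 1.83.

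**Figure D2:**
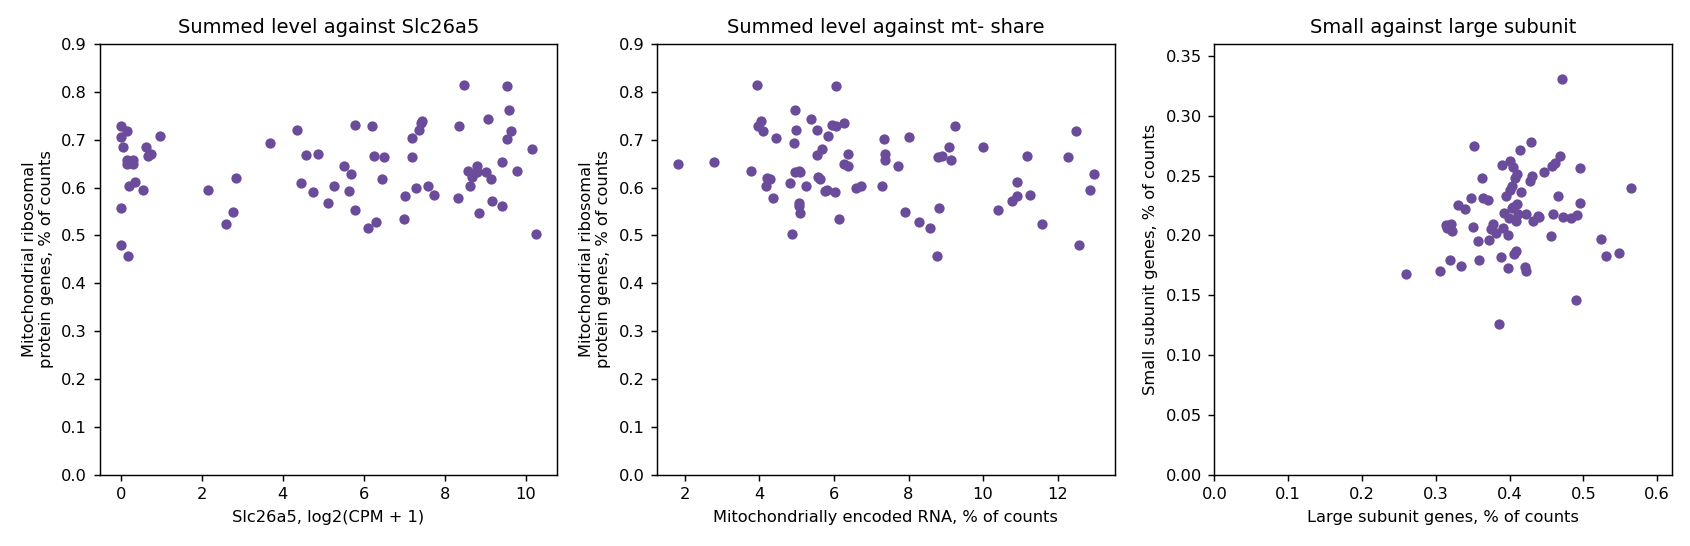
Each point is 1 of 73 cells. The left panel plots the summed level of the 78 genes in percent of counts against Slc26a5 on the log2(CPM + 1) scale, the middle panel plots it against the percent of counts in mt- genes, and the right panel plots the small subunit genes against the large subunit genes, both in percent of counts. The summed level stays between 0.457% and 0.815% across the whole range of Slc26a5.

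The first relation of interest was with Slc26a5, since these inner hair cells held the outer hair cell motor gene at widely differing levels. Of the 78 genes, 76 averaged at least 10 CPM and entered the comparison, and Mrpl47 with a mean of 8.02 CPM and Mrpl53 did not. Their median rho with Slc26a5 over the 73 cells was -0.0016, against -0.0304 over the 8618 genes compared. None of the 76 reached 0.5 or -0.5 (0 and 0), where 1.35% and 0.87% of all genes did. By sign, 38 were positive and 38 negative, against 43.3% and 56.7% of all genes. At the lower size of 0.3, 4 genes were at or above it and 2 at or below -0.3, against 6.17% and 6.8% of all genes, so the counts lie near the background. The summed level of the set had a rho of 0.0861 with Slc26a5. Its sign depended on the correction, at -0.0032 with total counts, -0.0137 with the number of genes with a count and -0.0306 with the mt- share held fixed.

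Mrps15 stood at the top with a rho of 0.458, followed by Mrpl34 at 0.381, Mrps12 at 0.334 and Mrps33 at 0.305. Next came Mrpl42 at 0.277, Mrpl46 at 0.258, Mrpl11 at 0.246, Mrpl32 at 0.241, Mrps34 at 0.227 and Mrpl37 at 0.169. Both subunits were present among these genes. At the other end were Mrpl33 at -0.378 and Mrpl55 at -0.313, then Mrps36 at -0.252, Mrps6 at -0.201, Mrps11 at -0.196, Mrps23 at -0.193, Mrps21 at -0.190, Mrpl28 at -0.175, Mrps24 at -0.171 and Mrps22 at -0.167. Mrpl33 and Mrpl34, both small large-subunit proteins with bacterial counterparts, thus had opposite signs. All of these values share the library total as denominator on both axes. The 45 compared genes with a bacterial counterpart had a median rho of -0.0294, with 19 positive and 26 negative. The 30 listed as specific to mitochondria had a median of 0.0704, with 19 positive and 11 negative. That difference was not tested. Mrps18a at 0.122 and Mrps18b at 0.0859 are among the 30, although they derive from bacterial protein S18 as given above.

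**Figure D3:**
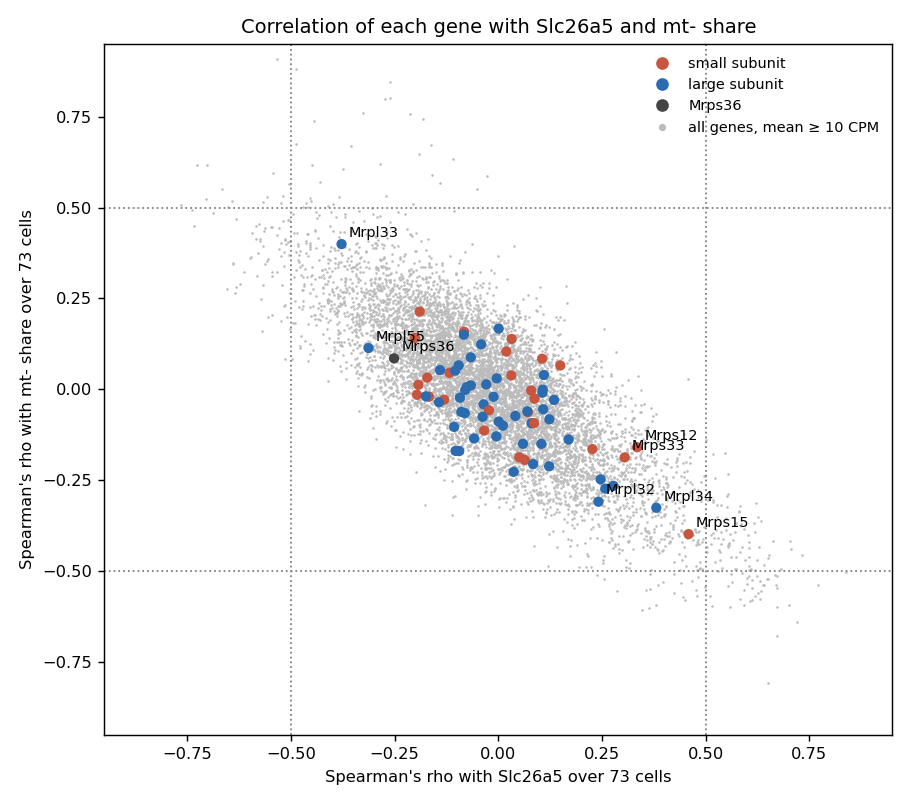
Spearman's rho of each gene with Slc26a5 (x axis) and with the percent of counts in mt- genes (y axis) over 73 cells, for the ribosomal protein genes over all 8618 genes compared. The ribosomal protein genes lie between -0.378 and 0.458 on the x axis and between -0.398 and 0.400 on the y axis, with Mrps15 at the lower right and Mrpl33 at the upper left.

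The second relation was with the share of counts in mitochondrially encoded genes, the rows whose symbol starts with mt-. That share had a median of 6.06% and a range of 1.81% to 13.0%. The 76 genes had a median rho of -0.0322 with it, against 0.0024 over all genes. None reached 0.5 or -0.5 (0 and 0), against 0.522% and 0.685% of all genes. By sign, 26 were positive and 50 negative, against 50.4% and 49.6% of all genes. The negative count was 43 with scaling by counts outside mt- rows and 43 with total counts held fixed. It was 52 with the number of genes with a count held fixed and 53 with Slc26a5 held fixed. Shares over all genes were not computed for these alternatives. At 0.3 only Mrpl33 was positive, at 0.400, and Mrps15 at -0.398, Mrpl34 at -0.326 and Mrpl32 at -0.309 were negative, against 4.33% and 5.62% of all genes. The next positive values were Mrps21 at 0.214, Mrpl14 at 0.167, Mrps17 at 0.159, Mrpl38 at 0.150, Mrps6 at 0.141, Mrps26 at 0.139, Mrpl23 at 0.124, Mrpl55 at 0.114 and Mrps7 at 0.104. The next negative values were Mrpl46 at -0.273, Mrpl42 at -0.265, Mrpl11 at -0.247, Mrpl24 at -0.227, Mrps18a at -0.211, Mrpl49 at -0.205 and Mrps14 at -0.194.

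The summed level of the set had a rho of -0.230 with the mt- share. An increase of the mt- share lowers every other share of the same library by construction. When the set was divided by the counts outside mt- rows instead, the rho was -0.0120. Correction for total counts, which had a rho of -0.424 with the mt- share and 0.326 with the summed level, gave -0.107. The relation of the summed level with the mitochondrial ribosomal RNAs was -0.240 and with the mitochondrial messenger RNAs -0.211. mt-Rnr1 had a median of 3611 CPM and mt-Rnr2 of 20617 CPM, and both are the RNA that the proteins of the set are built around.

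The measures on the x axes were themselves related: Slc26a5 and the mt- share had a rho of -0.488. With the cell number in the labels, Slc26a5 had a rho of 0.315, the mt- share -0.331 and the summed level 0.281. The labels do not say what the order of the numbers stands for, and no correction for it was made. With the mt- share held fixed by partial rank correlation, Mrps15 had 0.330 with Slc26a5, Mrps12 had 0.298 and Mrpl34 had 0.269. Mrpl33 had -0.229 and Mrpl55 had -0.297. With Slc26a5 held fixed, Mrpl33 had 0.266 with the mt- share and Mrps15 had -0.225. The values for Mrps15 and Mrpl33 were smaller in size than without the correction and kept their sign. With the mt- share, Mrps12 had 0.0048 with Slc26a5 held fixed and -0.159 without the correction, and Mrpl55 had -0.0471 and 0.114, so these signs depend on it. In the 48 cells with no rare marker of another cell type at 50 CPM, Mrpl33 had a rho of -0.169 and Mrpl55 of -0.180 with Slc26a5, while Mrps15 had 0.372, Mrpl34 0.415 and Mrps12 0.419. The summed level had 0.116 with Slc26a5 and -0.239 with the mt- share in those cells. This subset was chosen after seeing the data.

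Correlations between pairs of genes of the set were spread around 0. Over 2850 pairs of the 76 genes the median rho was 0.0076, against 0.0044 over 37139271 pairs of all genes averaging at least 10 CPM, and 0 pairs reached 0.5, against 0.0264% of all pairs. The highest pairs were Mrpl20 with Mrpl52 at 0.423, Mrps15 with Mrpl54 at 0.413 and Mrpl9 with Mrps23 at 0.387. The variance of the summed level over cells was 1.62 times the sum of the variances of its genes, a ratio that is 1 for genes that vary independently. The same ratio was 0.930 for the small subunit and 1.62 for the large subunit. It was 12.2 for the 90 cytosolic ribosomal protein genes and 6.26 for the 89 nuclear respiratory chain genes.

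**Figure D4:**
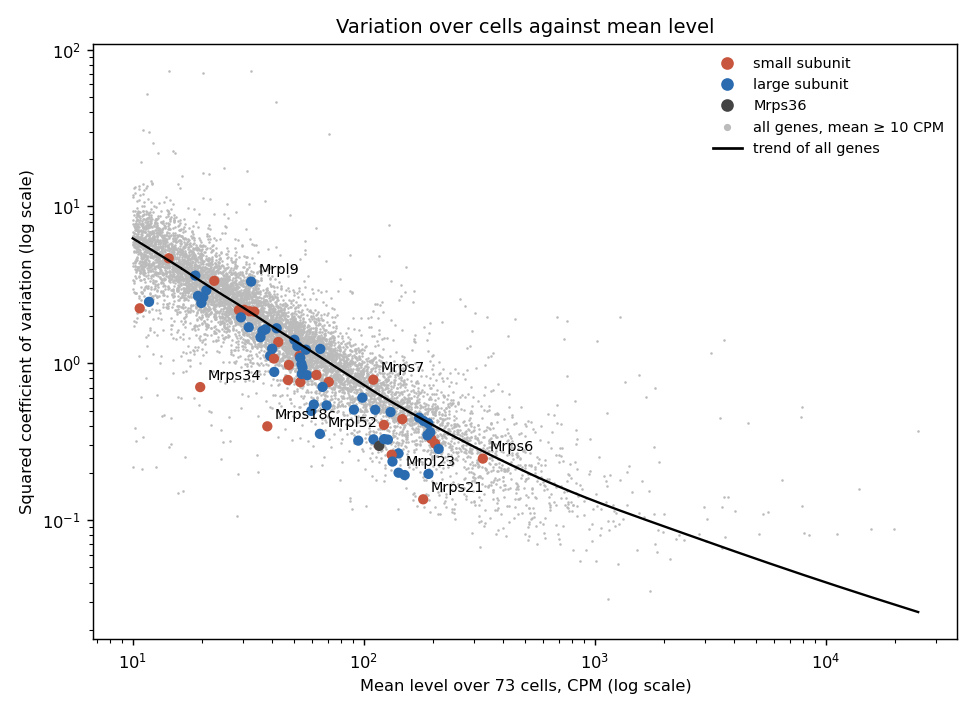
Squared coefficient of variation over 73 cells against mean CPM, both on log axes, for the ribosomal protein genes and for all 8619 genes averaging at least 10 CPM, with the trend of all genes as a line. Of the ribosomal protein genes, 10 of 76 lie above the line.

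Taken singly, most genes of the set had less cell-to-cell variation than the trend of genes of like mean, a difference that was not tested. The squared coefficient of variation was above the trend of all genes in 10 of 76, where 49.9% of all genes lie above it by the construction of the trend. The median gene stood at the percentile 20.1 of all genes by its distance from the trend, 24 were below the percentile 10 and 1 was above the percentile 90. Related groups lay below the trend as well: 7 of 77 cytosolic ribosomal protein genes and 8 of 77 nuclear respiratory chain genes were above the trend. The median distance from the trend in log10 of the squared coefficient was -0.122 for the 76 genes, -0.295 for the cytosolic ribosomal proteins and -0.312 for the respiratory chain. The least variable were Mrps34 at percentile 0.534, Mrps18c at 0.569, Mrps21 at 1.25, Mrpl52 at 1.42 and Mrpl23 at 2.19. Of these Mrps34 and Mrps18c share exon bases with other genes, as given above. The most variable were Mrpl9 at percentile 91.2, Mrps7 at 70.3, Mrps22 at 66.3, Mrpl4 at 65.1 and Mrps2 at 56. Mrpl9, a large subunit protein with a bacterial counterpart, had a median of 3.11 CPM and a highest value of 423 CPM.

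Values of related gene groups are set beside those of the 76 genes, and the differences between groups were not tested. The 77 cytosolic ribosomal protein genes that averaged at least 10 CPM had a median rho of 0.263 with Slc26a5, 72 were positive, and 8 reached 0.5. The 77 nuclear respiratory chain genes had a median of 0.0680, with 56 positive. By summed level, the ribosomal proteins of the mitochondrion had a rho of 0.468 with the respiratory chain genes and 0.287 with the cytosolic ribosomal proteins. The summed level of all genes averaging at least 10 CPM had 0.445 with the set, so the value for the respiratory chain lies near that background.

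**Figure D5:**
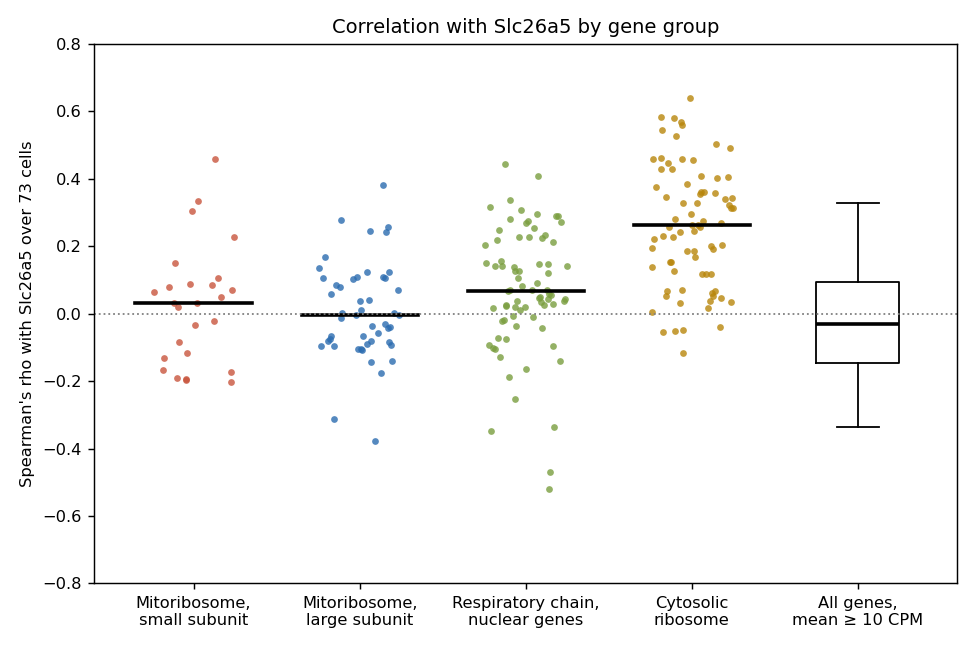
Spearman's rho with Slc26a5 over 73 cells for the genes of each group averaging at least 10 CPM, each point a gene. The small and large subunit genes lie on both sides of 0, and of the cytosolic ribosomal protein genes 72 of 77 lie above it.

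The other proteins and factors of mitochondrial translation were given from lists. The 5 mitochondrial ribosomal proteins with other symbols all averaged at least 10 CPM. Medians were 158 CPM for Aurkaip1, 104 CPM for Dap3, 76.3 CPM for Chchd1, 16.3 CPM for Gadd45gip1 and 9.81 CPM for Ptcd3. Of the 5, 4 were detected in at least 37 cells, and Ptcd3 was detected in 36. The rho of the 5 with Slc26a5 ranged from -0.282 for Gadd45gip1 to 0.236 for Chchd1. Of 12 translation factors 9 averaged at least 10 CPM, and 8 of the 9 had a negative rho with Slc26a5 and 1 a positive, where 56.7% of all genes compared were negative. The lowest was Guf1, the homolog of bacterial LepA, at -0.412. Tufm, the elongation factor that brings the aminoacyl-tRNA, had a median of 54.4 CPM. Of 22 assembly factors 13 were compared, 5 positive and 8 negative, with a median rho of -0.0323, and of 17 mitochondrial aminoacyl-tRNA synthetases 10 were compared, 3 positive and 7 negative. Both lists are short, and their splits stand against the same 56.7% negative over all genes. Among them Lars2, the leucyl-tRNA synthetase, had a median of 920 CPM with a range of 189 to 2793 CPM. The next highest median among the listed synthetases was 24.1 CPM, for Iars2. Lars2 had a rho of 0.482 with the mt- share, where mt-Rnr2 had 0.909. Sequence shared with other genes was checked only for genes with an Mrpl or Mrps symbol. Whether reads of mitochondrial RNA were counted in Lars2 was therefore not tested, and its counts are uncertain.

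The promoters of the set were described from RefSeq sequence of GRCm38.p6, from 250 bases before to 50 bases after each start. Of 78 genes 69 had an entry, with 75 promoters. The motif CCGGAAG, of the type bound by the ETS factor GABPA, was found on either strand in 26 of 75 promoters (34.7%), against 8.86% of all 32851 promoters and 19.8% of those of genes averaging at least 10 CPM. The core GCATGCGC of the motif of NRF1, nuclear respiratory factor 1, was in 8 (10.7%), against 2.71% and 5.92%. The core AAGATGGC of the YY1 motif was in 12 (16%), against 2.75% and 5.3%. At least 1 of the 3 was in 38 promoters (50.7%), against 13.3% and 28.3%. The cyclic AMP response element TGACGTCA was in 2 promoters (2.67%), against 1.79% and 3.65%. The GC box GGGCGG was in 39 (52%), against 35.7% and 64.5%, and the TATA box TATAAA in 5 (6.67%), against 13.6% and 6.43%. A match is a run of letters and not evidence of binding. A YY1 match lay before the start in 4 promoters and reached past it, into transcribed bases, in 8. The same numbers were 18 and 11 for the ETS motif and 8 and 1 for the NRF1 core, where some promoters held both. Of the transcripts of the named factors, Gabpa had a median of 0 CPM and a highest value of 234 CPM, and was detected in 20 cells. Nrf1 had a median of 0.182 CPM and a highest value of 275 CPM, and was also detected in 20 cells. Yy1 had a median of 27.6 CPM and was detected in 43 cells. Ppargc1a, the coactivator of mitochondrial biogenesis, did not exceed 0.317 CPM in any cell.

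The 150 bases before the start are printed for the genes at the ends of the order by Slc26a5, Mrps15, Mrpl34 and Mrpl33, and for Mrpl32 and Mrpl22, whose stretches hold several matches. Capitals mark matches to the ETS motif or the NRF1 core on either strand. The NRF1 core overlaps its own reverse complement, so GCGCATGCGC holds a match on each strand. Mrps15 is from chr4:126046778-126046927 (plus strand), Mrpl34 from chr8:71464776-71464925 (plus strand), Mrpl33 from chr5:31613801-31613950 (plus strand), Mrpl32 from chr13:14613038-14613187 (minus strand) and Mrpl22 from chr11:58171514-58171663 (plus strand), all in GRCm38.p6 and written 5′ to 3′ on the strand of the gene.
Mrps15: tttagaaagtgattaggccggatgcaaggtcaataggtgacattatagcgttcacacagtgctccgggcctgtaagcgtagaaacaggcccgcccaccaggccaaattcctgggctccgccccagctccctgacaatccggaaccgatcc
Mrpl34: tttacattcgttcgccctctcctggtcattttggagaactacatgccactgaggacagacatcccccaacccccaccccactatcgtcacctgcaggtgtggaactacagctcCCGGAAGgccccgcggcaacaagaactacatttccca
Mrpl33: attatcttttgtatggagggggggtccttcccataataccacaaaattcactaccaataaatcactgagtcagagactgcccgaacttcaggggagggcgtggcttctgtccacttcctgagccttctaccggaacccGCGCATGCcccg
Mrpl32: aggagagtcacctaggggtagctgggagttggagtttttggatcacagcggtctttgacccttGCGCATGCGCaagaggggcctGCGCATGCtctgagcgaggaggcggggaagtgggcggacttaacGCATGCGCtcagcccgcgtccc
Mrpl22: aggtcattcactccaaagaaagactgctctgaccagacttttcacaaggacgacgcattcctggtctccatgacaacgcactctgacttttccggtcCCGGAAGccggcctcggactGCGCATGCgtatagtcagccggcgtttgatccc
The Mrps15 stretch holds no match to the ETS motif or to the NRF1 or YY1 core. The Mrpl34 stretch holds 1 ETS match and the Mrpl33 stretch 1 NRF1 match. The Mrpl32 stretch holds 4 NRF1 matches, and the Mrpl22 stretch holds 1 match of each kind.

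Some of the genes lie head to head with a neighbour that is transcribed the other way. A protein-coding gene on the opposite strand started at most 1000 bases away, or overlapped by at most 200 bases, for 23 of 78 genes (29.5%), against 7.94% of 21924 protein-coding genes and 13.8% of those averaging at least 10 CPM. For the 12 pairs in which both genes reached that mean, the median rho over cells was 0.0721, against 0.0237 over the 401 such pairs of all genes. The highest was Mrpl32 with Psma2, a proteasome subunit gene 75 bases away, at 0.305, then Mrps12 with Sars2, the mitochondrial seryl-tRNA synthetase gene, at 0.269. The lowest was Mrpl36 with Ndufs6, a complex I subunit gene, at -0.211.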

How the data were processed

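The deposited values are whole-number counts for each gene in 73 cells, which the authors made from full-length cDNA (Smart-Seq HT, no molecular identifiers, per the labels' protocols), so counts include PCR copies. Software named in the submitters' processing notes comprises featureCounts 2.0.1, HISAT2 2.2.1 and StringTie 2.2.1, with the build mm10. Their roles, settings and use of strand, and the annotation release, are not given in the sources used here, so overlapping genes and near-identical copies are uncertain. The reporter element WPRE (0.0161% of counts) was kept out of totals. Counts were divided by library totals to give CPM. Correlations are Spearman's rho on CPM over genes averaging at least 10 CPM. They had no test, because 1 group with no named animal is 1 sample. Lengths and overlaps came from GENCODE vM21 (GRCm38) and promoters from RefSeq (GRCm38.p6). The members and lists were chosen with earlier results of these data known. Named genes are the 10 at each end by each correlation, the highest and lowest by CPM per kb and by variation, and the listed pathway genes. In simulated data over 8619 genes, 0 of 8419 unchanged genes passed 0.5, and genes rising or falling by 2 log2 units per SD passed in 66.7% and 66.7% of cases, by 1 unit in 26.5% and 27.3%, and by 0.5 in 2.94% and 9.09%, so weaker relations mostly stay below 0.5. Intervals are exact Clopper-Pearson at 95% and cover counting error only. Tools were Python 3.11.15, pandas 2.3.3, scipy 1.17.1, statsmodels 0.14.6, R 4.3.3 and scran 1.30.0.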

Additional observations from a re-analysis of the deposited data

Results flagged for a closer look

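Signal was present in rows outside the 78 genes. Counts were found for Mrpl23-ps1 in 73 cells, Mrps36-ps1 in 65 cells, Mrpl27-ps in 52 cells, Mrpl48-ps in 47 cells and Mrps36-ps2 in 36 cells, and Mrps36-ps3 had 0 counts. The median level was 5.95 CPM for Mrpl23-ps1, 3.41 CPM for Mrpl48-ps and below 1 CPM for the other 3 with counts. The row of the reporter element WPRE had a median of 144 CPM, with a range of 44.1 to 429 CPM.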

How the results depend on the processing

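Of 268 values recomputed under alternatives, 249 stayed within the limit (0.118 for a correlation, 1.5 times for a count), and 19 moved, 12 of them for named genes. This tally does not measure stability. A change of the mean filter or the call size leaves the correlations of single genes and of the summed level unchanged by construction. The limit of 0.118 is also larger than the 0.0861 of the summed level with Slc26a5, so a change of sign can stay within it. None of the 76 genes passed 0.5 in either direction. The summed level against Slc26a5, 0.0861, changed sign when total counts (-0.0032), genes with a count (-0.0137) or the mt- share (-0.0306) were held fixed, and the median correlation of the genes with Slc26a5 lay on either side of 0, from -0.0254 to 0.0093. Among single genes, Mrps12 and Mrpl55 changed sign with the mt- share when Slc26a5 was held fixed (0.0048 and -0.0471), and Mrps12 also with mt- protein-coding genes only (0.0372). The summed level against the mt- share was -0.0120 with scaling by counts outside mt- rows and -0.107 with correction for total counts. Over genes averaging at least 50 CPM, 25 were positive with Slc26a5 and 30 negative with the mt- share, since fewer genes were compared. Shares over all genes at that mean were not computed, so the 25 and 30 are not set against a background. At a size of 0.3, 6 genes passed with Slc26a5 and 4 with the mt- share. Detection at 50 CPM left 37 genes in at least 37 cells, and the share over all genes at that level was not computed. The alternative without cells holding any listed marker of another cell type at 50 CPM could not be run, since 0 cells were left; 48 cells remained when only rare markers were used, and 71 without cells 5 and 67, both chosen after seeing the data. No paired analysis was possible because all cells belong to 1 group. The depth limits low genes: 10 CPM is 110 counts where the library total was lowest.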

Other observations

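Outside the set, the genes whose level over the 73 cells was most like the summed level of the 78 genes were Prdx2, an antioxidant peroxiredoxin, with a Spearman's rho of 0.468, then Atp5j2, a subunit of ATP synthase, at 0.446, Tma7 at 0.439, Hsdl2 at 0.435 and Psmc1, a proteasome subunit, at 0.427. H2az1 had 0.425, Ndufa7, a complex I subunit, 0.424, Fth1, the ferritin heavy chain, 0.422, Surf1, a complex IV assembly factor, 0.417 and Chchd2 0.413. The lowest were Ormdl3 at -0.494, Mtr at -0.451, Mycbp2 at -0.444, Vps37a at -0.419 and Nsmce3 at -0.417. These genes are the ends of the order over all genes outside the set averaging at least 10 CPM, and their values were not tested. The library total is the denominator on both sides.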
